A study of Mus musculus with 16 samples.

Results

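MicroRNA miR-155-5p is the single row described here, 1 of the 853 mature microRNAs counted in these small RNA libraries and 1 of the 255 with enough counts to be fitted. It is listed under the miRBase identifier MIMAT0000165. It was selected on its measured values as well as on its known role: it was already known to be lower in both deficient genotypes. Its levels and changes across the genotypes are therefore given as a description, with errors and no p-values.

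The libraries were made from conventional type 1 dendritic cells (cDC1s) of mouse spleen, the dendritic cell subset that cross-presents antigen to CD8+ T cells. There were 16 libraries in 4 groups of 4, all labelled strain C57BL6 and spleen: genotype Xbp1 KO (Xbp1-deficient), genotype Xbp1-Ire1 KO (lacking Ire1a as well, called compound-deficient here), and a WT group for each of these mouse lines. The line of a WT sample was read from its description, which numbers the Xbp1-line libraries 4, 5, 6 and 8 and the other groups 1 to 4. Between 5000 and 50000 sorted cells went into a sample, and no treatment is named. The sources used here do not give age, sex, the way the alleles were deleted in these cells, or whether replicates were separate mice, and the spread between libraries may thus be technical. The loss of Xbp1 and Ire1a could not be checked, since their transcripts are messenger RNAs and the table holds mature microRNAs. The same holds for the marker genes of cDC1s. MicroRNAs of other cell types, which could show admixed cells, were not checked because names could not be matched to identifiers. The microRNAs given below by identifier only could therefore include some of these.

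MiR-155 is excised from a spliced non-coding transcript (BIC, the product of Mir155hg). In macrophages and dendritic cells this transcript is induced by Toll-like receptor ligands and inflammatory cytokines, through transcription factors such as NF-κB and AP-1. The mature microRNA lowers the output of targets that include the transcription factor PU.1, the cytokine-signalling inhibitor SOCS1 and the lipid phosphatase SHIP1, and dendritic cells that lack it prime T cells poorly. IRE1, encoded by Ire1a, is a sensor of unfolded protein in the endoplasmic reticulum. Its ribonuclease removes an intron from Xbp1 mRNA, which then encodes the active transcription factor, and can cut other RNAs too. The genotypes set cells without XBP1, in which Ire1a is not labelled as deleted, and cells without both against wild type. The activity of IRE1 was not measured here. A change in Xbp1-deficient cells therefore cannot be assigned to the loss of XBP1 alone.

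The mature sequence is shown because its bases 2 to 8, in capitals, are the seed that sets which messenger RNAs it pairs with. The hairpin precursor follows with the 5p arm in capitals. Both are from RefSeq, build GRCm38.p6, where the 1 name looked up was found.
miR-155-5p, chr16:84714143-84714165, plus strand: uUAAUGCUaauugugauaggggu
Mir155 hairpin, chr16:84714140-84714204, plus strand: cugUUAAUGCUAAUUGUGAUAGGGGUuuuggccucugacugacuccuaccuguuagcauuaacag

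The mature strand of 23 bases lay at positions 4 to 26 of the 65-base hairpin, and the opposite 3p arm at positions 43 to 63. In the minimum free energy fold of the hairpin, 20 of the 23 bases of the 5p arm were paired, among them all 7 of the seed. In GENCODE M21, which is on the same build, the hairpin lay within exon 2 (84714053 to 84715245) of both annotated transcripts of Mir155hg on chromosome 16. Among the 1679 mature mouse microRNAs of the RefSeq table, 0 others had the same bases 2 to 8, and 0 the same bases 2 to 7. The closest other mature sequence differed at 10 positions with shifts of up to 2 bases allowed, so a near-identical microRNA with which reads could be shared was not seen in this table. The hexamer CUGCAG, the core of a loop sequence that IRE1 cuts in XBP1 mRNA, was searched on the RNA strand. It did not occur in the Mir155 hairpin (0 matches) and was present in 75 of 1005 hairpins, 7.46%. Only this exact hexamer was searched, at any place in the hairpin. Its variants and the rest of the Mir155hg transcript were not searched, and cutting by IRE1 was not tested.

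Over all libraries 63.1% of the fitted microRNAs had a lower mean level than miR-155-5p. Its mean level of 218 CPM (counts per 1000000 counts, on library sizes scaled by the TMM method) placed it 94th of the 255 fitted microRNAs, a mean over groups that differ. In the 8 wild-type libraries alone it was 80th, at 336 CPM, and in the 8 deficient ones 114th, at 100.3 CPM. It was counted in each of the 16 libraries, with 18 to 342 reads per library and 2347 in total. Total microRNA counts ranged from 175165 to 1403393, and the widest counting error was therefore in compound-deficient replicate 4, the shallowest library, with 18 reads.

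In the Xbp1-line wild type, miR-155-5p had raw counts of 342, 312, 249 and 155 in replicates 4, 5, 6 and 8. These corresponded to 323, 287, 324 and 375 CPM. In Xbp1-deficient cells the raw counts were 144, 110, 70 and 81 in replicates 1 to 4, or 139, 114, 56.2 and 109 CPM. Each deficient library held fewer reads and a lower level than each wild-type library of the line, and the groups did not overlap: the lowest wild-type level was 2.06 times the highest deficient level. The group means were 327 ± 36.5 CPM (SD, n = 4) and 105 ± 34.8 CPM. Set against the wild-type mean, the deficient libraries stood at 42.5%, 35.0%, 17.2% and 33.2%. Replicate 3 was the lowest of all 16 libraries, and it was also the most deeply sequenced.

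The edgeR model put the change at −1.65 on the log2 scale (SE 0.30, 95% interval −2.27 to −1.02), 32.0% of the wild-type level with an interval from 20.7% to 49.4%. Without Xbp1-deficient replicate 3 the log2 change was −1.41. The median change of all 255 fitted microRNAs was −0.07, and 50% of them lay between −0.33 and 0.23. Levels that separated in this way, with the 4 deficient libraries below all 4 of the wild type, were found for 18 of the 255 (7.06%). At an edgeR adjusted p under 0.05, 1.96% of microRNAs were called lower and 2.35% were called in either direction. Because these are the values the microRNA was chosen by, nothing is read from its place among them. In bulk RNA, less miR-155-5p per cell and fewer cells that contain it cannot be told apart.

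In the compound-line wild type, raw counts were 227, 159, 205 and 92 in replicates 1 to 4, or 615, 274, 221 and 272 CPM. Replicate 1 stood far above the other 3 libraries of its group and was the highest of the 16. In compound-deficient cells the raw counts were 97, 29, 57 and 18, which corresponded to 104, 80.6, 105 and 95.1 CPM. The deficient libraries lay close together and again entirely below the wild type, where the lowest level was 2.11 times the highest deficient one. Group means were 345 ± 181 CPM (SD, n = 4) and 96.1 ± 11.3 CPM, and the 4 deficient libraries stood at 30.2%, 23.3%, 30.3% and 27.5% of the wild-type mean.

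For this line the log2 change was −1.83 (SE 0.31, 95% interval −2.48 to −1.17), or 28.2% of the wild-type level with an interval from 17.9% to 44.4%. Without the high wild-type replicate 1 it was −1.51. Across all fitted microRNAs the median change was 0.04, and 50% lay between −0.28 and 0.32. The 4 deficient libraries lay below all 4 wild-type libraries for 13 microRNAs, 5.1% of those fitted. In edgeR 2.35% were called lower and 5.88% in either direction.

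**Figure D1:**
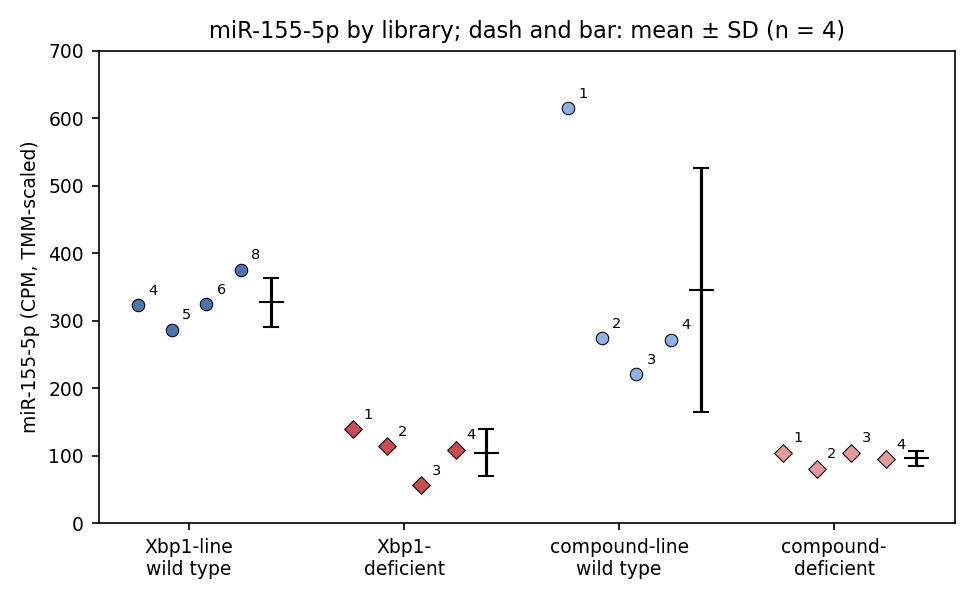
Level of miR-155-5p in each library. The y axis is CPM on TMM-scaled library sizes from 0, each point is 1 library with its replicate number, circles are wild type and diamonds deficient, and the dash and bar beside each group are mean ± SD (n = 4). The 8 deficient libraries sit between 56.2 and 139 CPM, below the wild-type range of 221 to 615 CPM, and compound-line wild type 1 stands apart at the top.

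Ordered by mean level, the groups ran from the compound-line wild type (345 CPM) through the Xbp1-line wild type (327 CPM) and Xbp1-deficient cells (105 CPM) to compound-deficient cells (96.1 CPM). The first pair and the last pair in this order did not differ beyond their spread. Between the wild types the log2 difference, compound line minus Xbp1 line, was 0.07 (SE 0.29, 95% interval −0.54 to 0.68). It was −0.30 without compound-line wild type 1 and −0.09 with limma voom, so it had no stable direction. Between the deficient genotypes the log2 difference, compound-deficient minus Xbp1-deficient, was −0.11 (SE 0.31, interval −0.76 to 0.54). The step from the Xbp1-line wild type down to Xbp1-deficient cells was larger than the range of either group. In the compound line the step between the means was smaller than the wild-type range, 221 to 615 CPM. Taken over both lines, the lowest of the 8 wild-type libraries (221 CPM) was 1.59 times the highest of the 8 deficient ones (139 CPM). Such a complete separation was found for 5 of the 255 microRNAs (1.96%), and 7 (2.75%) separated in this direction within each line.

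Whether the added loss of Ire1a went with another change than loss of Xbp1 alone is addressed by the difference of both changes. For miR-155-5p this was −0.18 (compound line minus Xbp1 line, SE 0.42, 95% interval −1.07 to 0.71), and 0.12 without compound-line wild type 1. On the linear scale, the ratio of deficient to wild-type level in the compound line was 88.2% of that ratio in the Xbp1 line, with an interval from 47.6% to 163%. The interval holds differences of either sign, so these libraries do not show that the changes were equal.

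**Figure D2:**
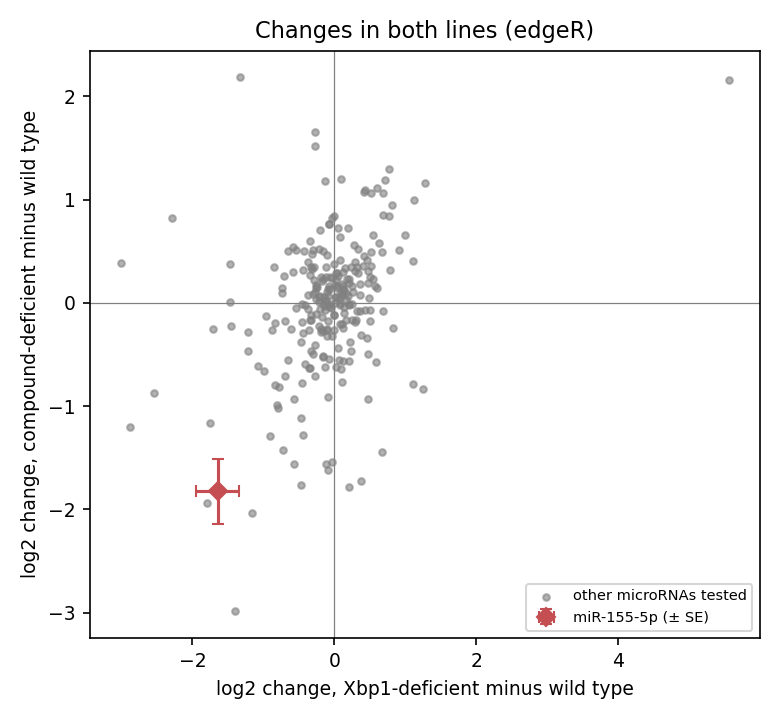
Log2 change of the 255 fitted microRNAs in both lines, with Xbp1-deficient minus wild type on the x axis and compound-deficient minus wild type on the y axis (edgeR). Each grey point is 1 microRNA, and the diamond with SE bars is miR-155-5p, at −1.65 and −1.83.

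A few microRNAs had larger fitted falls, and these were scarcer. In the Xbp1 line 7 microRNAs had a more negative log2 change than miR-155-5p, from −3.01 to −1.72, with mean levels of 7.29 to 56.7 CPM. In the compound line there were 3, from −2.99 to −1.94, with mean levels of 7.32 to 33.3 CPM. Each of these had a larger SE than miR-155-5p, at 0.36 to 1.91 in the first line and 0.58 to 1.11 in the second. Of them, 1 in the Xbp1 line and 0 in the compound line were called lower at an edgeR adjusted p under 0.05. The 4 microRNAs nearest to miR-155-5p in mean abundance over all 16 libraries (213 to 236 CPM) had log2 changes between −0.37 and 0.58 in the Xbp1 line and between −0.57 and 0.56 in the compound line. As miR-155-5p was chosen by its own values, these comparisons are a description only.

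The spread of miR-155-5p was wide in 2 groups, each with 1 library far from the rest. In the Xbp1 line the coefficient of variation of the CPM values was 11.2% for wild-type and 33.3% for deficient libraries. In the compound line it was 52.5% for wild-type and 11.7% for deficient libraries. Counting error alone (1 over the square root of the reads) averaged 6.36%, 10.2%, 7.99% and 16.4% in the same order. The compound-deficient libraries thus differed by no more than their read numbers allow. Without replicate 1 the coefficient of variation of the compound-line wild type was 11.9% (counting error 8.45%). Without replicate 3 that of Xbp1-deficient cells was 13.4% (counting error 9.66%). Leaving out 1 library lowered the other groups too, at most to 6.85% in the Xbp1-line wild type (without replicate 8). In compound-deficient cells the lowest was 5.32% (without replicate 2). The wide spread is thus not shown to come from 1 library alone. On log2 CPM, compound-line wild type 1 lay 0.787 of its group's range from the nearest other library. For Xbp1-deficient replicate 3 this was 0.725, and both were under Dixon's 95% critical value for 4 samples. Before TMM scaling, compound-line wild type 1 stood at 625 CPM of its total counts (exact 95% binomial interval 546 to 711), against 232 (202 to 266) in replicate 3 of that group. Xbp1-deficient replicate 3 stood at 49.9 (38.9 to 63.0), against 130 (110 to 153) in replicate 1. These intervals cover counting error only, as reads without molecular identifiers may include PCR copies. The fitted biological coefficient of variation of miR-155-5p over the 4 groups was 30.1%, close to the 29.4% of the trend at its abundance.

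Depth moved with the level inside some groups. The deepest library was the lowest in Xbp1-deficient cells (replicate 3, 1403393 counts) and in the compound-line wild type (replicate 3, 882108 counts). In the Xbp1-line wild type the shallowest library, replicate 8 with 400210 counts, was the highest. When log2 depth entered the fit as a covariate, the log2 changes were −1.55 (SE 0.29) in the Xbp1 line and −1.78 (SE 0.30) in the compound line. With every library thinned to 175165 counts they were −1.56 (SE 0.34) and −1.81 (SE 0.35). All 4 values lay within 1 SE of those at full depth.

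**Figure D3:**
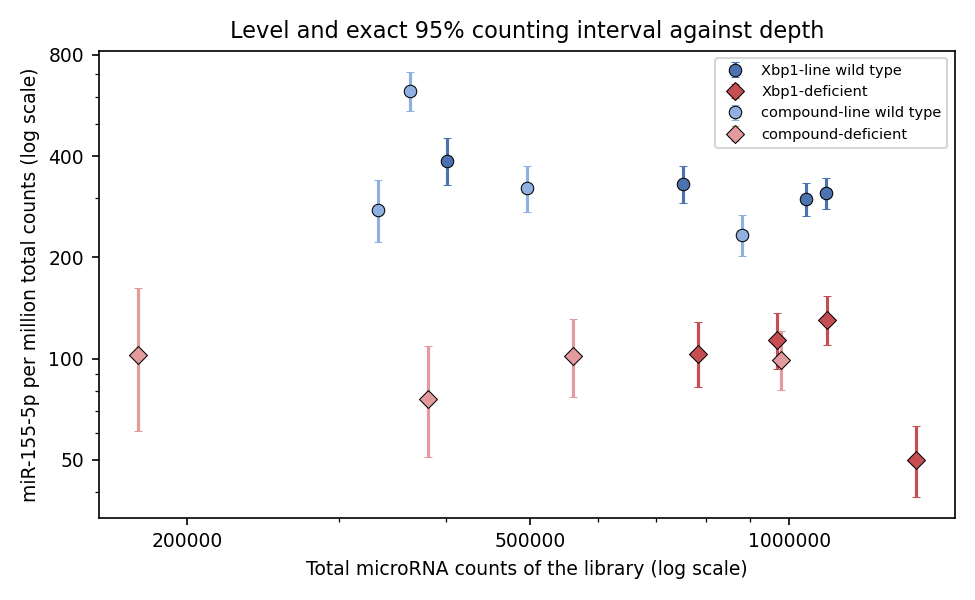
Level of miR-155-5p as CPM of the total counts (y axis, log scale) against the total microRNA counts of the library (x axis, log scale). Points are libraries, circles wild type and diamonds deficient, and bars are exact 95% binomial intervals. The wild-type and deficient libraries form an upper and a lower band over the shared range of depths. The interval widest relative to its level, as seen on the log scale, is 60.9 to 162 and belongs to the shallowest library.

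By rank within a library, which does not depend on the scaling, miR-155-5p stood between 79 and 83 in wild-type and between 104 and 139 in deficient libraries of the Xbp1 line, counting from the most abundant of the 853. In the compound line its rank was 67 to 92 in wild-type and 113 to 125 in deficient libraries. The ranks of the deficient and wild-type libraries did not overlap in either line. How many of all microRNAs separate by rank was not computed, and the ranks come from the counts this microRNA was chosen by. In the authors' deposited log2 values, wild-type libraries of the Xbp1 line averaged 8.32 ± 0.15 (SD, n = 4) and deficient ones 6.69 ± 0.55. Those of the compound line averaged 8.31 ± 0.60 with wild-type and 6.59 ± 0.13 with deficient genotype. Tested settings other than left-out libraries kept the log2 change between −1.74 and −1.51 in the Xbp1 line and between −2.11 and −1.61 in the compound line.

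**Figure D4:**
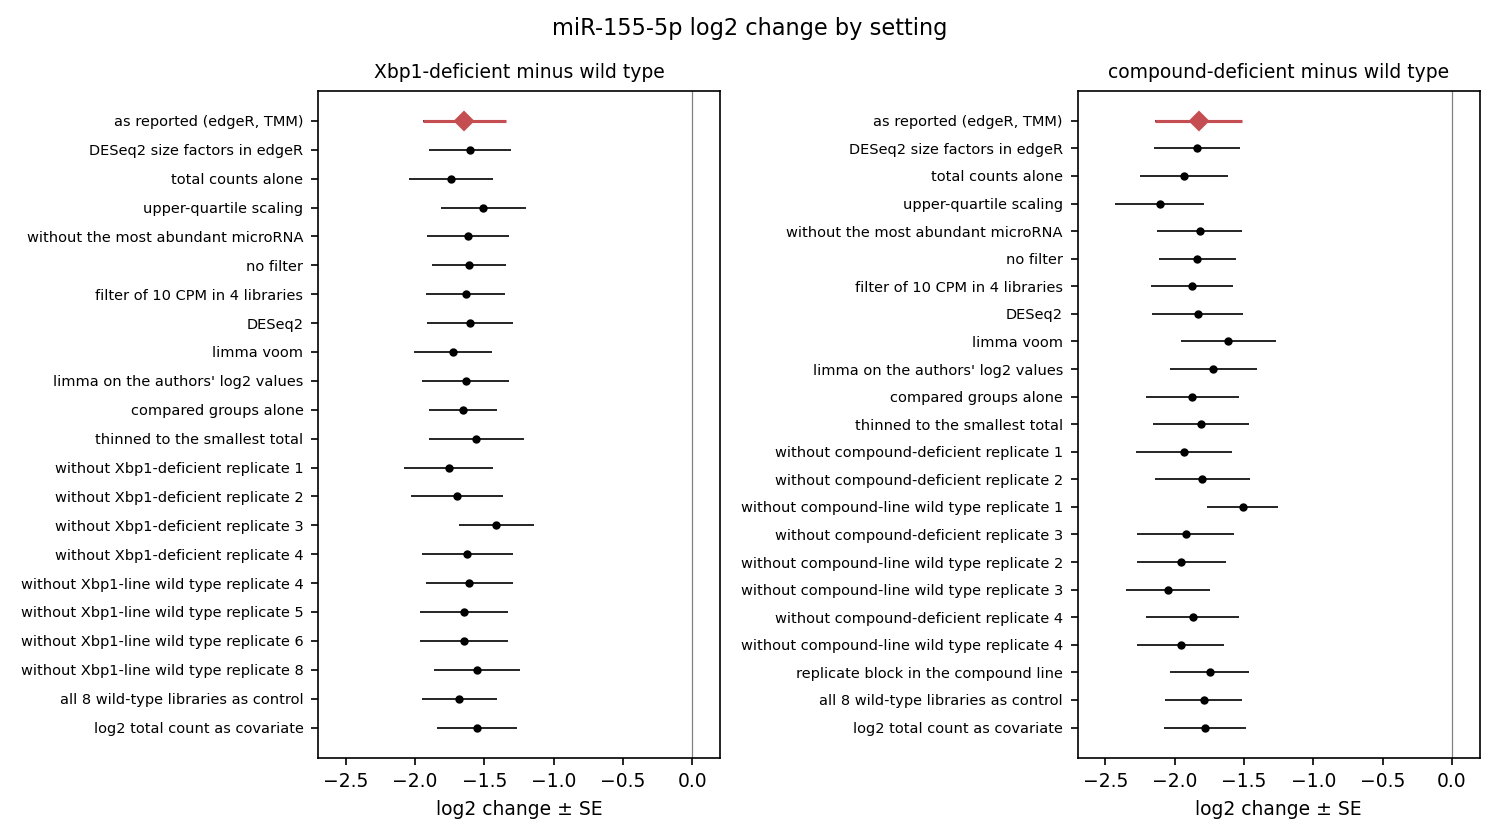
Log2 change of miR-155-5p (x axis, ± SE) under each setting (rows), for Xbp1-deficient minus wild type on the left and compound-deficient minus wild type on the right. The red diamond is the reported value. Every point lies below 0, and the values nearest to 0 are −1.41 without Xbp1-deficient replicate 3 and −1.51 without compound-line wild type 1.

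The profiles most like that of miR-155-5p were sought among the other 254 fitted microRNAs by the root mean square difference of log2 CPM, each microRNA standardised to mean 0 and SD 1 over the 16 libraries. The closest was MIMAT0000211, at a distance of 0.545, where the median microRNA was at 1.37. In the Xbp1 line it stood at 2401 ± 463 CPM (SD, n = 4) with wild-type and 1348 ± 339 with deficient genotype, a log2 change of −0.83 (SE 0.20). In the compound line the wild type stood at 2917 ± 675 CPM and deficient libraries at 1685 ± 199, a log2 change of −0.79 (SE 0.20). The next was MIMAT0000212, at a distance of 0.594, with log2 changes of −1.75 (SE 0.36) and −1.17 (SE 0.38) on a mean of 56.7 CPM. Places 3 to 5 were held by MIMAT0000516, MIMAT0001632 and MIMAT0000224. Their log2 changes were −1.22 (SE 0.15), −1.80 (SE 0.54) and −0.56 (SE 0.29) in the Xbp1 line. In the compound line they were −0.47 (SE 0.15), −1.94 (SE 0.58) and −0.93 (SE 0.31). The most distant, at 1.82, was MIMAT0000539, which was higher in both deficient genotypes, by 0.69 (SE 0.16) and 0.85 (SE 0.16) on the log2 scale. These are given as a description, since all were ranked against values from the same 16 libraries.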

How the data were processed

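Small RNA reads of 16 cDC1 libraries had been counted per mature microRNA. Per the submitters' processing notes, the builds were GRCm38 and mm10 and the tools limma 3.42.2, Bowtie 1.1.2, cutadapt 1.8.1 and FastQC 0.11.3, with no roles stated. The sources used here do not give the microRNA release or the treatment of reads with several matches. The authors deposited raw counts of 853 microRNAs and log2 values of 473, which equal log2 CPM recomputed from the counts with TMM scaling to within 4.97e-14.

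Counts were fitted with edgeR 4.0.16 (R 4.3.3): TMM, filterByExpr by group (count minimum 10), 1 quasi-likelihood fit of all 16 libraries without a replicate block, and Benjamini-Hochberg adjustment over 255 microRNAs. The fit was tested on simulated counts with the same spread for every microRNA and changes in the Xbp1-deficient group only. The compound line, the difference of the changes and outlying libraries were not simulated. SE was the size of the change over the square root of F. Log2 CPM used a prior count of 1. Alternatives used DESeq2 1.42.0 and limma 3.58.1, and the hairpin was folded with RNAfold 2.7.2. Within groups, every pair of libraries exceeded counting noise (chi-square per degree of freedom at least 15.7), so none was counted as a duplicate.

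The member, lists and settings were chosen with earlier results of these data known. Named microRNAs were to be miR-155-5p, its 3p arm, members of 3 lists (stimulus-inducible, dendritic cell, other cell types), the 5 nearest profiles and the 4 neighbours in abundance. The files and reference tables do not pair identifiers with names, so 0 list members and not the 3p arm were matched. Identifiers were limited to the nearest 5 profiles and the farthest 1, the last added after its values were seen.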

Additional observations from a re-analysis of the deposited data

How the results depend on the processing

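The log2 changes of miR-155-5p and the differences between groups moved by less than 1 SD of the libraries under every setting run. That SD includes the libraries left out in turn. Both changes were negative in all settings. As miR-155-5p was chosen for its lower levels and its groups did not overlap, this sign is a description only. Leaving out 1 library gave −1.76 to −1.41 in the Xbp1 line and −2.05 to −1.51 in the compound line. The difference of the changes ranged from −0.60 (upper-quartile scaling) to 0.12 (without compound-line wild type 1), and was 0.11 with limma voom. The difference between the deficient genotypes was −0.40 to −0.05 with 1 library left out and 0.02 with limma voom, and that between the wild types −0.30 to 0.24, so the sign of these 3 differences was not stable.

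The number of all microRNAs passing, 6 in the Xbp1 line and 15 in the compound line, was less stable. In the Xbp1 line it was 15 without the filter, 17 in DESeq2, 3 with limma on the authors' log2 values, 11 in a fit of the compared groups alone and 12 with all 8 wild-type libraries as control. In the compound line these were 24 with upper-quartile scaling, 1 with limma on the authors' log2 values, 9 in a fit of the compared groups alone and 30 with all 8 wild-type libraries as control. The cause was not tested. With 1 library left out the numbers were 2 to 8 and 6 to 20.

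In the compound line, both groups share the numbers 1 to 4. The deviations of same-numbered libraries correlated at 0.11, −0.26, 0.26 and 0.01. The numbers were not taken as pairs, though these values cannot exclude a pairing. With the replicate block miR-155-5p changed by −1.75 and 17 microRNAs passed, and 2 of the 4 wild-type libraries correlated best with their own number. The Xbp1 line shares only 1 number, so no block was fitted there. Settings for the 3p arm were not run, because it was not matched. The covariate on depth was added after the data were seen. Depth limits the compound-deficient values most, at 18 to 97 reads.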
